A study of Homo sapiens with 8 samples.

Results

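The genes that write, copy and oxidise cytosine methylation were examined in 2 human uveal melanoma cell lines after a change in APOBEC3B (A3B), a cytidine deaminase. The set was fixed by gene symbol and comprised 7 of the 19952 symbols listed in the files: the DNA methyltransferases DNMT1, DNMT3A and DNMT3B, the methyltransferase partner UHRF1, and the TET enzymes TET1, TET2 and TET3. The 92.1 cells received a hairpin against A3B in the lentiviral pGIPZ-TurboGFP-puro vector (shA3B) or served as controls (shCtrl), for which the methods name an empty vector. The MEL290 cells overexpressed full-length A3B from a pHAGE-puro vector (A3B OE) or served as the negative control (NC). RNA was sequenced from 2 libraries in each of the 4 groups, 8 in all. The labels do not name the hairpin used and do not say whether the 2 libraries of a group came from separate cultures, so the p-values measure only the spread between these libraries, which may be technical. All cells were established lines, so each comparison has a single line as its model, and the lines also differed in vector.

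DNA methylation in mammals is placed on CG dinucleotides by the de novo enzymes DNMT3A and DNMT3B. At replication it is copied onto the new strand by DNMT1, which UHRF1 brings to hemimethylated DNA. The TET enzymes oxidise 5-methylcytosine, using 2-oxoglutarate as a cosubstrate, and the oxidised bases can be lost at replication or cut out by the glycosylase TDG. Messenger RNA was measured here, and neither enzyme activity nor methylation itself.

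Expression was given as FPKM (fragments scaled to transcript length and to the mapped total of the library), a level per length that can be compared between genes. Summed FPKM ranged from 609934 to 677946 per library, and 11389 to 11524 genes reached 1 FPKM. Depth was not recorded in these values, so no counting interval is given. The targeted gene moved as labelled: the log2 difference of APOBEC3B was -3.47 (SE 0.15, limma adjusted p = 2.37e-06) in 92.1 and 3.08 (SE 0.12, limma adjusted p = 0.000775) in MEL290. All 8 melanocyte markers were above 1 FPKM in every 92.1 library, with a sum of 7116 to 8713 FPKM. In MEL290 the sum was 15.2 to 20.7 FPKM, nearly all of it MITF, TYR was listed at 0 in all libraries, SOX10 did not exceed 0.168 FPKM and PMEL was at 0.836 to 1.31 FPKM, so most defining markers of a pigmented melanocyte were at or near 0 there. The 6 epithelial markers summed to 1680 to 2584 FPKM in MEL290, mostly the keratins KRT8 and KRT18, and to 3.75 to 5.67 FPKM in 92.1. KRT14 and CDH1 did not exceed 2.36 FPKM in any library, EPCAM did not exceed 0.0728 FPKM, and KRT5 was listed at 0 throughout. The fibroblast markers summed to 44.1 to 61.0 FPKM in MEL290, mostly COL1A1 and PDGFRB, and to 5.56 to 7.87 FPKM in 92.1. LUM went the other way, at 3.58 to 5.03 FPKM in 92.1 and at most 0.126 in MEL290. COL1A2, COL3A1, DCN and THY1 did not exceed 0.277 FPKM in any library. Of the 6 immune markers, CD68 alone exceeded 1 FPKM. In bulk RNA, fewer cells expressing a gene and less RNA per cell cannot be told apart.

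The members lie on 5 chromosomes of GRCh38. DNMT1 (chr19:10133342-10231286, minus strand, 41 exons) and UHRF1 (chr19:4903080-4962154, plus strand, 17 exons) share an arm of chromosome 19, with 5.17 Mb between them. DNMT3A (chr2:25227855-25342590, minus strand) and TET3 (chr2:73984910-74108176, plus strand) are both on chromosome 2. DNMT3B is at chr20:32762385-32809359, TET1 at chr10:68560337-68694487 and TET2 at chr4:105145875-105279816, all on the plus strand. The canonical transcripts of TET1 and TET2 had a GC content of 42.1% and 41.2%, and those of the other 5 members 53.2% to 55.7%. Transcript length ran from 3898 bases for UHRF1 to 12060 bases for TET3. For TET3, 390 exonic bases were shared with a long noncoding RNA on the same strand, 3.23% of its canonical transcript, and no other member shared exonic bases with a neighbour.

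The promoters of UHRF1 and DNMT1 are shown because these were the members called in the A3B comparison in MEL290, described below, and because each holds an octamer of the E2F type, the kind of site found in many genes of DNA replication. The sequences are from RefSeq (GRCh38.p14) and run from 100 bases before the annotated start to base 20 of the transcript, 5′ to 3′ on the strand of the gene. Capitals mark a match to 1 of 4 octamers searched on both strands, TTTCCCGC, TTTCGCGC, TTTGCCGC and TTTGGCGC. The same 8 bases can match only 1 of them, on 1 strand, although matches can overlap in part.
UHRF1, chr19:4909401-4909520, plus strand: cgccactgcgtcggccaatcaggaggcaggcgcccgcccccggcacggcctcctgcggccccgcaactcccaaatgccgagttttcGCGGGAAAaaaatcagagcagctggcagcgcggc
DNMT1, chr19:10194934-10195053, minus strand: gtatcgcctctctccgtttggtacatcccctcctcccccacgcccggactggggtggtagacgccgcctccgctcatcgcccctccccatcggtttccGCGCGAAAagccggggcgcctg

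In UHRF1 the match lay at -14 to -7 from the start and in DNMT1 at -2 to 6, both on the opposite strand. These starts, at positions 4909501 and 10194953, lay inside the gene coordinates given above, not at their ends. A further UHRF1 start, at position 4910144, had an octamer at -160 to -153. All 7 members were in the promoter table, with 18 windows of 300 bases (250 before and 50 after a start), and no octamer was found in the windows of DNMT3A, DNMT3B, TET1, TET2 or TET3. Of all 35116 windows, 3.31% held 1, or 3.99% of the 27305 genes when the windows of a gene were pooled. The windows of UHRF1 held 36, 40 and 46 CG dinucleotides and that of DNMT1 30, against a median of 14 over all windows. The TET1 windows held 6 to 11, and the only DNMT3B window, at an internal start, held 3. Every octamer searched holds a CG, and the shares over all windows and genes were not matched for CG content. A match describes these letters and does not show that a factor binds there.

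The maintenance genes were the most abundant members. In 92.1, DNMT1 measured 57.6 and 63.5 FPKM in shCtrl and 56.8 and 59.0 in shA3B. UHRF1, the reader of hemimethylated DNA, measured 57.1 and 54.2 FPKM in shCtrl and 58.2 and 49.0 in shA3B. The shCtrl and shA3B ranges overlapped for both genes, which stood between percentiles 91.5 and 93.1 of all listed symbols. In MEL290, DNMT1 measured 25.5 and 24.7 FPKM in NC and 39.5 and 34.9 in A3B OE. UHRF1 measured 15.4 and 13.2 FPKM in NC and 23.9 and 21.1 in A3B OE. Both A3B OE libraries were above both NC libraries for each gene, and all 4 MEL290 libraries were below all 4 of 92.1.

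The de novo methyltransferases had unlike profiles. DNMT3A measured 7.27 and 10.2 FPKM in shCtrl, 7.82 and 10.5 in shA3B, 10.6 and 9.78 in NC, and 10.8 and 10.3 in A3B OE. Its range in shCtrl overlapped that of every other group but A3B OE, which lay just above it. DNMT3B measured 5.23 and 6.39 FPKM in shCtrl, 5.60 and 5.02 in shA3B, 0.875 and 0.593 in NC, and 1.05 and 0.949 in A3B OE. All 4 readings in MEL290 were below all 4 in 92.1, and DNMT3B was above TET2 in 92.1 and below it in MEL290. DNMT3L, the catalytically inactive cofactor of the de novo enzymes, was listed at 0 in all 8 libraries.

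TET3 was the most abundant TET gene throughout. It measured 10.1 and 9.82 FPKM in shCtrl, 9.76 and 9.09 in shA3B, 5.96 and 5.95 in NC, and 4.48 and 4.96 in A3B OE. TET2, which lacks the DNA-binding CXXC domain of its relatives, measured 3.68 and 2.93 FPKM in shCtrl, 3.47 and 3.75 in shA3B, 3.30 and 3.18 in NC, and 3.42 and 3.84 in A3B OE. TET1 measured 2.98 and 2.81 FPKM in shCtrl, 3.35 and 3.58 in shA3B, 0.162 and 0.212 in NC, and 0.590 and 0.541 in A3B OE. TET2 was thus at a similar level everywhere, whereas TET1 had readings of less than 1 FPKM in every MEL290 library.

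**Figure D1:**
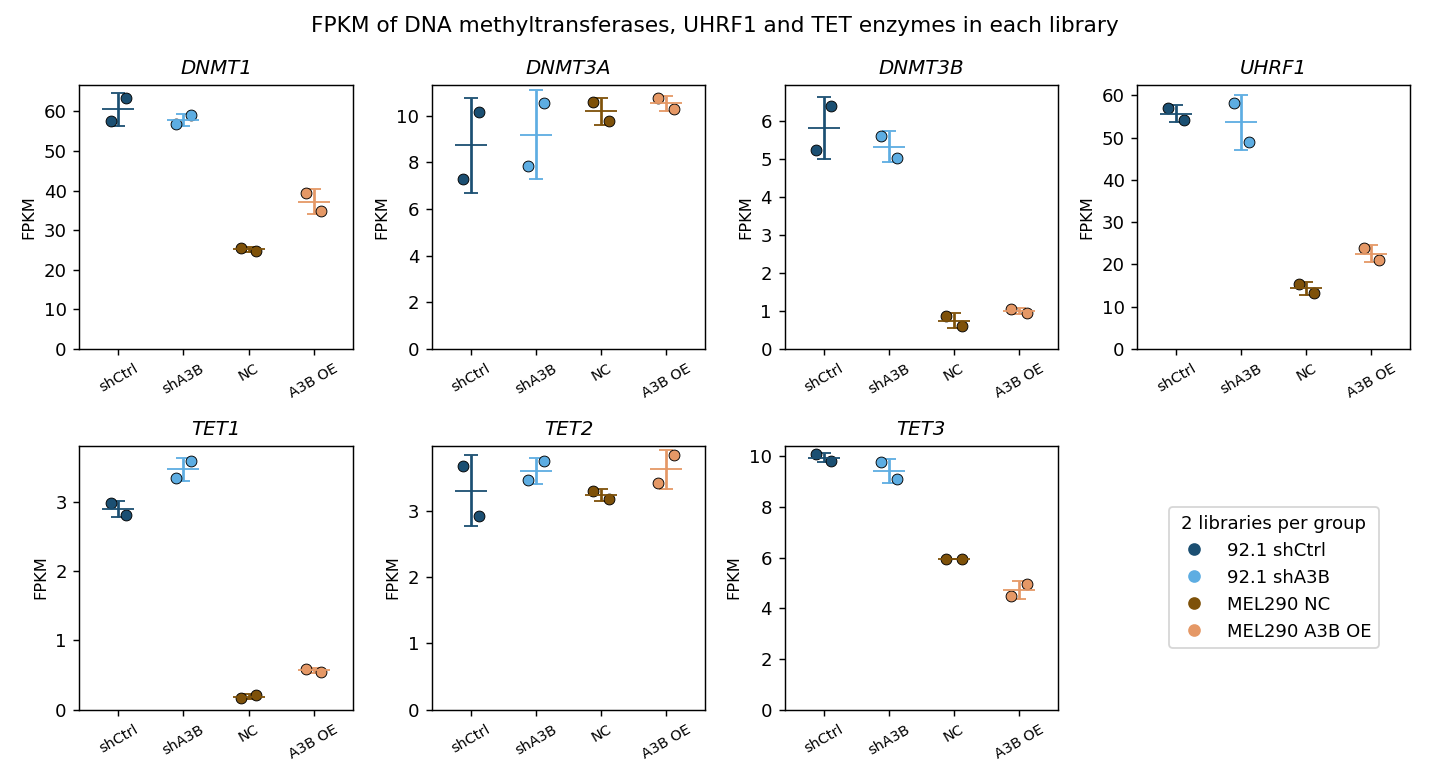
FPKM of each gene by group on linear axes from 0; points are libraries, bars the mean and SD of 2 libraries. DNMT1 and UHRF1 stand near 50 to 60 FPKM in 92.1 and lower in MEL290, and TET1 and DNMT3B are near the bottom of their axes in MEL290. For TET2 and DNMT3A the ranges of the 2 lines overlap. The DNMT3A libraries lie apart within shCtrl (7.27 and 10.2 FPKM) and within shA3B (7.82 and 10.5).

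Ordered by mean FPKM in shCtrl, the members ran DNMT1, UHRF1, TET3, DNMT3A, DNMT3B, TET2 and TET1. The libraries of TET3 and DNMT3A overlapped there, as did those of TET2 and TET1, and in shA3B those of DNMT1 and UHRF1 did so too. In NC and A3B OE the order was DNMT1, UHRF1, DNMT3A, TET3, TET2, DNMT3B and TET1, and no neighbours in that order overlapped.

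The make-up of the family differed between the lines and, for some measures, between NC and A3B OE. DNMT3A exceeded DNMT3B by 1.39 to 2.10 times in 92.1 and by 10.2 to 16.5 times in MEL290. TET1 made up 17.8% to 21.8% of the summed TET FPKM in 92.1, 1.72% and 2.27% in NC, and 6.95% and 5.79% in A3B OE. DNMT1 made up 79.1% to 82.2% of the summed DNMT FPKM in 92.1, 69.0% and 70.4% in NC, and 77.0% and 75.7% in A3B OE. The summed TET FPKM was 15.6 to 16.7 in 92.1 and 8.49 to 9.42 in MEL290, where the NC and A3B OE ranges overlapped. The summed DNMT FPKM was 4.19 to 5.14 times the summed TET FPKM in 92.1, 3.93 and 3.76 times in NC, and 6.04 and 4.94 times in A3B OE, so the 92.1 range overlapped that of A3B OE. DNMT1 and UHRF1 were nearly equal in 92.1, at a ratio of 0.976 to 1.20, and DNMT1 led by 1.65 to 1.87 times in MEL290.

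Depletion of A3B in 92.1 changed no member at the threshold. Differences were tested with limma on log2(FPKM + 1), a scale on which changes of genes near or below 1 FPKM are understated, and a gene was called at a Benjamini-Hochberg adjusted p under 0.05 over all genes tested. All 7 members were tested, 0 were called and 0 had an unadjusted p under 0.05, beside 0.00862% called of all 11605 genes, a share made by APOBEC3B alone. The log2 differences ran from -0.11 for DNMT3B to 0.20 for TET1, and the limma adjusted p of each was 0.999. For DNMT1 the 95% interval was -0.35 to 0.23 and for UHRF1 -0.36 to 0.25. TET1 was higher in both shA3B libraries than in both shCtrl libraries, but its interval, -0.18 to 0.57, included 0.

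The same held for the genes that work with these enzymes. Of 102 genes tested from 11 lists (partners of the enzymes, readers, metabolism, methylation-sensitive genes and the cell cycle), limma called 0 in 92.1. An unadjusted p under 0.05 was found for 3 of the 102, beside 336 of all 11605 genes. The 3 were the chromatin remodeller HELLS (log2 difference 0.48), the imprinted cell-cycle inhibitor CDKN1C (-0.39) and the kinetochore gene CENPF (0.59), each with a limma adjusted p of 0.999. In the remaining lists, the genes with the widest log2 differences were QSER1 (0.23), ZBTB33 (0.25), SMUG1 (-0.18), IDH1 (0.15), AHCY (-0.21), RARB (0.23) and CLSPN (0.28), all uncalled. The widest among the markers were S100B (0.27), COL1A1 (0.24), KRT18 (0.25) and CD68 (-0.25), also uncalled.

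Overexpression of A3B in MEL290 was accompanied by more DNMT1 and UHRF1 transcript. DNMT1 rose from 25.1 ± 0.600 to 37.2 ± 3.20 FPKM (SD, n = 2), 1.48 times, with a log2 difference of 0.55 (SE 0.09, limma adjusted p = 0.0144). UHRF1 rose from 14.3 ± 1.60 to 22.5 ± 1.99 FPKM (SD, n = 2), 1.57 times, with a log2 difference of 0.62 (SE 0.12, limma adjusted p = 0.0204). These were 2 of the 5 members tested, beside 10.3% of all 11611 genes called higher and 7.49% called lower. Both calls needed the A3B OE replicate 1 library: without it 0 members were called (limma adjusted p = 0.0614 for DNMT1 and 0.0968 for UHRF1), and without A3B OE replicate 2 only DNMT1 was (limma adjusted p = 0.0391, against 0.0604 for UHRF1).

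The other tested members were not called. TET3 was lower in both A3B OE libraries than in both NC libraries, with a log2 difference of -0.28 (SE 0.13, 95% interval -0.59 to 0.02, limma adjusted p = 0.177). TET2 had a difference of 0.13 (95% interval -0.20 to 0.46) and DNMT3A of 0.04 (95% interval -0.22 to 0.31).

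TET1 and DNMT3B did not pass the filter of 1 FPKM in 2 libraries and were not tested in MEL290. The 2 TET1 readings in A3B OE were both above those in NC, and the ratio of the means was 3.03. Among the 1580 untested genes with a mean of 0.1 to 1 FPKM and no reading at 0, 7.47% had both A3B OE libraries above both of NC with a ratio at least as large. When all genes were tested without the filter, limma called TET1 (log2 difference 0.40, adjusted p = 0.0422) and no longer called DNMT1 (adjusted p = 0.0556) or UHRF1 (adjusted p = 0.0772). With a pseudocount of 0.1 as well, TET1 was not called (log2 difference 1.22, limma adjusted p = 0.0611). DNMT3B had a ratio of 1.37 and was not called without the filter (limma adjusted p = 0.323).

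**Figure D2:**
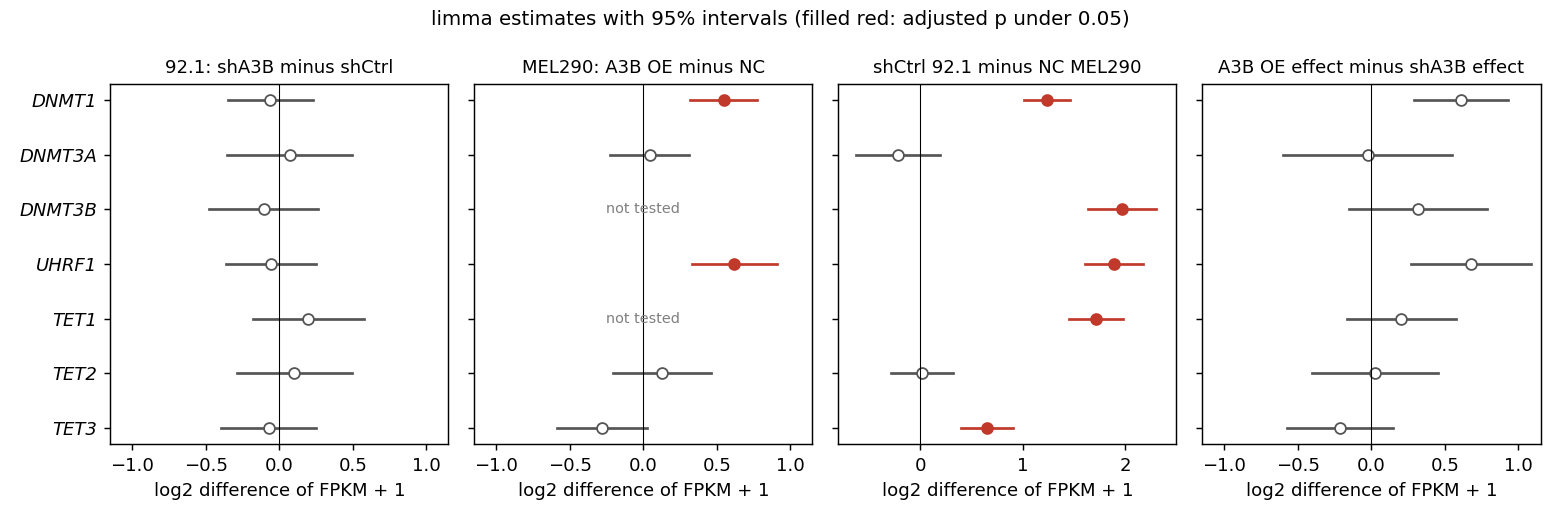
limma log2 differences of FPKM + 1 with 95% intervals for each gene in 4 comparisons; filled red points have an adjusted p under 0.05. DNMT1 and UHRF1 lie above 0 in MEL290 and near 0 in 92.1, and 5 genes lie well above 0 in the comparison of the control cells.

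Several partners of maintenance methylation also rose in A3B OE. Of 9 tested, 5 rose and 0 fell, with a median log2 difference of 0.52 against 0.004 over all genes. The shares over all genes, 10.3% called higher and 7.49% called lower, stand beside this list and those below. These lists were chosen with earlier results of these data known, so their counts are descriptions and not independent evidence. PCLAF, a PCNA-binding factor that helps to place DNMT1 at replicating DNA, measured 62.8 and 61.4 FPKM in NC and 141 and 132 in A3B OE (log2 difference 1.12, limma adjusted p = 0.00155). CDCA7, the partner of the remodeller HELLS, measured 4.73 and 4.13 FPKM in NC and 9.14 and 10.0 in A3B OE (0.96, limma adjusted p = 0.00714). DNA ligase LIG1, which can carry UHRF1 to replication sites, rose by a log2 difference of 0.87 and CDCA7L by 0.52. HELLS had a difference of 0.63 and was not called (limma adjusted p = 0.0621). An E2F-type octamer was found in a promoter window of 5 of these 9 genes, beside the 3.99% of all genes given above. Whether these were the genes that rose was not examined.

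Genes of the cell cycle moved with them. Of 19 S phase genes, 17 rose and 0 fell, with a median log2 difference of 0.64, close to the 0.55 of DNMT1 and 0.62 of UHRF1. RRM2 (1.07), GMNN (1.03), MCM2 (0.96) and MCM3 (0.92) had the largest differences, and CDC6 the largest among the uncalled (0.47). Without A3B OE replicate 1, limma called 6 of the S phase genes. All 12 G2/M genes rose, with a median of 1.03, and of the 10 with a promoter window 1 held the octamer. Of the 19 S phase genes, 15 had a window and 10 of these held an octamer, beside the 3.99% of all genes given above. Such sites are found in many genes of DNA replication, so this share was foreseeable. A role of E2F was not tested. The proliferation marker MKI67 measured 10.7 and 10.8 FPKM in NC and 29.0 and 30.6 in A3B OE, a log2 difference of 1.39, followed by AURKB (1.17), TOP2A (1.14) and CENPF (1.13). The part of the cell cycle in the values of DNMT1 and UHRF1 was not tested.

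The other lists of the methylation machinery had fewer calls, beside the 17.8% of all genes called in MEL290. Of 11 tested partners of de novo methylation and heterochromatin, 3 rose and 0 fell: TRIM28 (0.54), the corepressor of zinc finger proteins, NSD2 (0.41), a histone H3 lysine 36 methyltransferase, and CBX5 (0.39), a heterochromatin protein. SUV39H1 (0.29) was the largest of the uncalled. Of 8 methyl-CpG readers, ZBTB38 fell (-0.35) and none rose, while MBD2 (0.38) was uncalled with a limma adjusted p of 0.0812. Of the partners 1 was called without NC replicate 2 or either A3B OE library, and of the readers 0 without either A3B OE library and 2 without NC replicate 2.

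Genes that remove oxidised cytosine or partner with the TET enzymes had more falls than rises. Of 8 tested, 3 fell and 1 rose, with a median log2 difference of -0.31. Over all genes, 7.49% fell and 10.3% rose. The glycosylase TDG fell from 18.2 ± 1.10 FPKM in NC to 12.4 ± 1.12 in A3B OE (SD, n = 2, log2 difference -0.52, limma adjusted p = 0.0266). The glycosylase NEIL2 (-0.50) and the stress gene GADD45A (-0.50) fell as well, GADD45B rose (0.46), and NEIL1 was uncalled (-0.33). Without either A3B OE library, limma called 1 of the 8. Of the TET genes, TET3 (-0.28) and TET2 (0.13) were uncalled, and TET1, untested, had a ratio of 3.03. The summed TET FPKM of NC and A3B OE overlapped.

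The lists of cofactor supply are short, and their calls stand beside the 17.8% of all 11611 genes called in MEL290. Of 8 genes of 2-oxoglutarate metabolism, limma called 0, and the widest difference was that of fumarate hydratase FH (0.30). An unadjusted p under 0.05 was found for 2 of the 8, beside 3848 of all 11611 genes. Of 9 genes of the methyl donor cycle, 2 rose: MAT2A, which makes S-adenosylmethionine, from 135 and 142 FPKM in NC to 213 and 220 in A3B OE (log2 difference 0.64, limma adjusted p = 0.00349), and AHCYL1 (0.38). AHCY, which clears the product of methyl transfer, had a difference of -0.29 and was not called (limma adjusted p = 0.0586). Without NC replicate 2 or either A3B OE library, 1 gene of the cycle was called.

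Genes often discussed as targets of methylation were mixed. Of 10 germline genes silenced by methylation in most somatic cells, none was tested in either line, and the highest reading was 0.180 FPKM in 92.1 and 0.656 in MEL290, both of SYCP3. Of 8 imprinted genes tested in MEL290, MEST (0.84) and SGCE (0.48) rose and SNRPN (-0.66) and GRB10 (-0.49) fell, with NAP1L5 (-0.27) the largest of the uncalled. Of 8 genes known for promoter methylation in cancers, 3 rose: MGMT (3.68), TIMP3 (1.08) and CDKN2A (0.66), while DAPK1 (0.38) was uncalled. Without A3B OE replicate 2, limma called 2 imprinted genes and 1 of the promoter-methylated genes. The repair gene MGMT measured 0.392 and 0.787 FPKM in NC and 18.7 and 19.9 in A3B OE, near its 17.8 to 23.7 in the 4 libraries of 92.1.

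Among the marker lists in MEL290, the keratins KRT8 (-0.40), KRT18 (-0.66) and KRT14 (-1.10) fell in A3B OE, and 0 of the tested melanocyte, fibroblast or immune markers were called (the widest were PMEL at 0.19, COL1A1 at 0.33 and CD68 at 0.10, with 0 at an unadjusted p under 0.05). The part of that keratin difference in the values of the members was not tested.

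**Figure D3:**
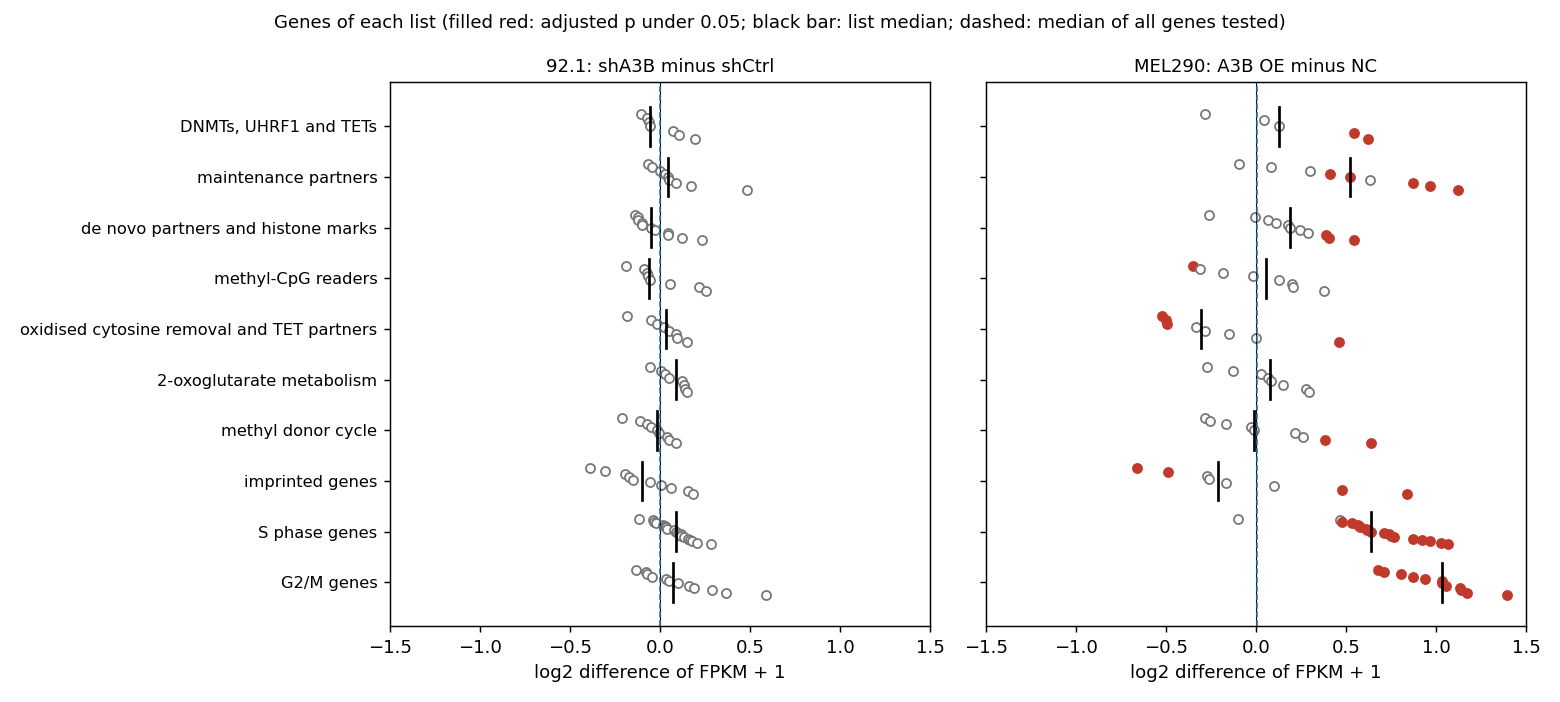
Each point is a gene of the list named at left, placed by its limma log2 difference of FPKM + 1 in 92.1 (left) and MEL290 (right). Filled red points have an adjusted p under 0.05, black bars are list medians and the dashed line is the median of all genes tested. In 92.1 no point is filled, and in MEL290 the S phase and G2/M genes lie to the right with medians of 0.64 and 1.03.

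The response to A3B OE in MEL290 was set against the response to shA3B in 92.1 in a fit over all 8 libraries. As planned, the contrast was the A3B OE effect minus the shA3B effect. Since these perturbations move A3B in opposite directions, the same dependence on A3B in both lines would also give a value away from 0, and the contrast does not test whether the effect of A3B differed between the lines. Limma called 0 of 7 members in it, beside 4.4% of all 12697 genes. An unadjusted p under 0.05 was found for 2 members, beside 2531 of all 12697 genes. DNMT1 had a value of 0.61 (95% interval 0.29 to 0.93, limma adjusted p = 0.0513) and UHRF1 of 0.68 (95% interval 0.27 to 1.08, limma adjusted p = 0.0757). With each library corrected for trends with GC content and transcript length together, DNMT1 had a value of 0.52 and was called (limma adjusted p = 0.0405). A second contrast, chosen after seeing the data, took each effect as more A3B minus less A3B and subtracted 92.1 from MEL290. Limma again called 0 of 7 members, beside 5.57% of all genes. The lowest adjusted p were those of TET1 (0.60, 95% interval 0.22 to 0.97, limma adjusted p = 0.0748), DNMT1 (0.48, 95% interval 0.16 to 0.81, limma adjusted p = 0.0888) and UHRF1 (0.56, 95% interval 0.16 to 0.97, limma adjusted p = 0.112). TET1 was below 1 FPKM in every MEL290 library and entered this fit through its 92.1 readings. DNMT1 and UHRF1 were thus called in MEL290 and not in 92.1, and a difference between the lines in the effect of A3B on them was not shown.

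Between the control cells, 92.1 shCtrl had more of 5 members than MEL290 NC, beside 40.1% of all genes called higher and 34.8% called lower. TET1 (0.162 to 0.590 FPKM in MEL290) and DNMT3B (0.593 to 1.05) passed the filter of this fit through their 92.1 readings. Their calls therefore add little to the levels given above. With 1 FPKM required in every library, 3 members were called, beside 3904 genes called higher and 3305 called lower of 10021. Ratios of mean FPKM were 15.5 for TET1, 7.91 for DNMT3B, 3.89 for UHRF1, 2.41 for DNMT1 and 1.67 for TET3. On the log2(FPKM + 1) scale DNMT3B differed by 1.97, UHRF1 by 1.89, TET1 by 1.71, DNMT1 by 1.24 and TET3 by 0.65, with limma adjusted p from 2.4e-06 for UHRF1 to 0.00072 for TET3. DNMT3A (-0.22, 95% interval -0.63 to 0.19) and TET2 (0.02, 95% interval -0.29 to 0.32) were not called. With the GC and length trend removed, TET2, one of the GC-poor transcripts, was called higher in 92.1 (0.37, limma adjusted p = 0.0123). Of 19 S phase genes, 17 were also called higher in 92.1, with a median of 1.71. Line, vector and control type cannot be told apart in this comparison, nor can the lower melanocyte markers of MEL290.

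The partner genes were called in both directions between the lines. Of 53 genes tested from the 6 lists of partners, readers, cytosine removal and metabolism, 26 were higher and 15 lower in 92.1, 41 in all, a share close to the 74.9% called over all genes. Among maintenance partners, CDCA7 (2.88), PCNA (1.42), LIG1 (1.22) and ZBTB24 (0.70) were higher in 92.1, UHRF2 (-1.10), the relative of UHRF1, and CDCA7L (-0.55) were lower, and HELLS (0.58) was uncalled.

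Each member was matched to genes near it in profile, by the root mean square difference of centred log2(FPKM + 1) over the 8 libraries among 12696 candidates. These were PTBP1 and BLMH for DNMT1 (0.06 and 0.07), FEN1 for UHRF1 (0.09), SUMO2 and NPIPB4 for DNMT3A (0.03 and 0.07), EFNB1 and CCAR2 for DNMT3B (0.04 and 0.06), NUDT4 and PAQR8 for TET1 (0.08 and 0.08), PPP4R3B and NBPF12 for TET2 (0.05 and 0.05), and CYB5R1 and ZBED4 for TET3 (0.03 and 0.05). FEN1, a flap endonuclease of DNA replication, is also on the S phase list. NPIPB4 and NBPF12 belong to families of near-identical copies, so their values are uncertain.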

How the data were processed

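RNA-seq libraries were prepared with an NEBNext Ultra kit and sequenced as paired-end reads. The deposited files hold FPKM values, 1 per gene symbol and library, which the authors computed with Cufflinks from STAR alignments to GRCh38, and tool versions were not given in the sources used here. FPKM keeps no read depth and depends on transcript models, so reads shared between gene copies cannot be followed.

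Genes reaching 1 FPKM in 2 or more libraries were fitted, on the log2(FPKM + 1) scale, with limma 3.58.1 (lmFit, eBayes with trend, Benjamini-Hochberg adjustment, threshold 0.05) in R 4.3.3, each line alone, and all 8 libraries together for contrasts between lines. The study's Cuffdiff test needs reads and was not run. An exact permutation test of 2 against 2 libraries cannot go below p = 0.333. Coordinates were taken from GENCODE 44 for 18998 of 19952 symbols matched to 1 gene, and promoters from RefSeq. The test was also run on data simulated with normal noise from its own fitted means and spreads. That run cannot show how the test holds for real FPKM values.

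Members and lists were chosen with earlier results of these data known. Named list genes were, per list and comparison, up to 4 called genes and 1 uncalled gene with the largest absolute difference. APOBEC3B, MGMT and, for each member, the 2 nearest profiles were also named, except 1 gene that is not reported here. For contrasts between lines, only members and maintenance partners are named and the other list genes are given as counts, to limit length. Alternatives tried were no trend, quantile and upper quartile scaling, other filters, a pseudocount of 0.1, a replicate block, removal of a GC and length trend, 1 fit over all libraries, and each library left out. The filter-free fit with a pseudocount of 0.1 and the contrast of more minus less A3B were added after seeing the data.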

Additional observations from a re-analysis of the deposited data

How the results depend on the processing

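Of the members' values under alternatives, 381 kept their direction and side of the threshold, 7 lost their call, 2 gained 1 and 19 reversed. Of the other named genes' values, 732 kept both, 85 lost the call, 9 gained it and 5 reversed. In MEL290, DNMT1 and UHRF1 were called in the main fit. Without a filter neither was called, and TET1, untested in the main fit, was. With a pseudocount of 0.1 as well, 0 members were called. Both of these fits tested more genes. With an A3B OE library left out, calls were lost, as given above. Between the lines, 3 members were called instead of 5 when 1 FPKM was required in every library, which removed DNMT3B and TET1. With the GC and length trend removed, 1 member instead of 0 was called in the A3B OE effect minus the shA3B effect. The cause was not tested for the values that reversed. These were TET2 between the lines with upper quartile scaling (-0.032) and its difference of effects with quantile normalization (-0.000243), DNMT3A in the difference with effects coded as more A3B minus less A3B (0.11), and, with a library left out, in 92.1 DNMT1 (-0.13 to 0.0073), DNMT3A (-0.15 to 0.29), DNMT3B (-0.23 to 0.018), UHRF1 (-0.18 to 0.065), TET2 (-0.024 to 0.23), IDH1 (-0.15 to 0.45), RARB (-0.15 to 0.62) and CD68 (-0.85 to 0.36), in MEL290 DNMT3A (-0.0082 to 0.10), between the lines TET2 (-0.11 to 0.14), and in the difference DNMT3A (-0.24 to 0.19) and TET2 (-0.10 to 0.15).

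Over all genes, limma called 1 gene in 92.1, 2 without the trend, 37 with the replicate block, 0 without a filter and 2 to 9 with a library left out. APOBEC3B itself was not called in 92.1 without a filter (adjusted p = 0.343). In MEL290 it called 2065, 915 without a filter, 743 with a pseudocount of 0.1 as well, and, when A3B OE replicate 1 or replicate 2 was left out, 888 or 809. For the A3B OE effect minus the shA3B effect it called 559, 223 with the replicate block, 328 with 1 FPKM in every library, 254 with no filter and a pseudocount of 0.1, 885 with the GC and length trend removed, and 36 to 286 with a library left out. Without a filter, 5 of 19 S phase genes were called in MEL290. The replicate numbers were not shown to pair the libraries (correlation of deviations 0.19 in 92.1 and -0.03 in MEL290), and the replicate block changed no call of a member: 0 in 92.1, 2 in MEL290, 5 between the lines and 0 in the difference. It ended the calls of CBX5, ZBTB38 and NEIL2. Where a group was left with 1 library, that library was assumed to vary like the others. FPKM gave no depth, so counting error, which weighs most on TET1 and DNMT3B in MEL290, is not covered.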
